A study of Mus musculus with 16 samples.

Results

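The carbonic anhydrase genes Car1, Car2, Car3, Car4, Car7, Car8, Car9, Car12, Car13 and Car14 were followed in mouse colon mucosa with and without sulindac-induced inflammation. The 10 genes were chosen by their symbols in the array annotation. Each had 1 row in the expression table, so all 10 were measured among the 30702 genes tested.

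Affymetrix arrays were run on mucosal RNA of male C57BL/6J mice. From the age of 6 weeks the mice ate for 10 weeks either control feed or feed containing sulindac at 320 ppm, an anti-inflammatory drug of the non-steroidal class. All mice were homozygous for a floxed Mcc gene, named for its mutation in colorectal cancers. Knockout (KO) mice, VILcreMccf/f, also carried Cre under the villin promoter, which is active in intestinal epithelium, so their other cells keep Mcc. The Mccf/f siblings without Cre are called wild type (WT) here, although their Mcc alleles are floxed. Inflamed areas of the proximal colon, called lesions, were taken from sulindac-fed mice and matching normal mucosa from control-fed mice. There were 6 WT control, 3 WT lesion, 3 KO control and 4 KO lesion arrays. No array holds uninflamed mucosa of sulindac-fed mice, so the drug and the inflammation cannot be told apart.

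Carbonic anhydrases are zinc enzymes that convert carbon dioxide and water into bicarbonate and a proton. In the colon surface epithelium this reaction feeds the exchangers that take up sodium and chloride in return for protons and bicarbonate. Family members differ in where they work: Car1, Car2, Car3, Car7 and Car13 are cytosolic, Car4 is tethered to the outer cell surface by a lipid anchor, and Car9, Car12 and Car14 cross the plasma membrane with their catalytic part outside. Car8 has lost the catalytic activity and binds the inositol trisphosphate receptor. CA9 and, in many cell types, CA12 are known in humans as genes induced by low oxygen through hypoxia-inducible factor.

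The promoters of the lipid-anchored Car4 and the membrane enzymes Car9 and Car12 are shown. These enzymes face outside the cell, and Car4 and Car9 had called differences, given below. Car12, not called, is shown beside Car9 because human CA9 and, in many cell types, CA12 are known hypoxia targets. Each run covers 250 bases before to 50 after the annotated start on the gene's strand (RefSeq, GRCm38.p6). Capitals mark matches, on either strand, to the hypoxia response cores ACGTG and GCGTG, which do not overlap each other here.
Car4, chr11:84957504-84957803, plus strand: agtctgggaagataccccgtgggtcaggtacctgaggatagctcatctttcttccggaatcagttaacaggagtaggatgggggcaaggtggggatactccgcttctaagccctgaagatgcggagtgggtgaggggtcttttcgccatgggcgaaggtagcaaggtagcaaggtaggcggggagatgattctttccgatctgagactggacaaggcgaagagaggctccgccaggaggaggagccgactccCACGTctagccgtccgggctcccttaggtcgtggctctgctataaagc
Car9, chr4:43506776-43507075, plus strand: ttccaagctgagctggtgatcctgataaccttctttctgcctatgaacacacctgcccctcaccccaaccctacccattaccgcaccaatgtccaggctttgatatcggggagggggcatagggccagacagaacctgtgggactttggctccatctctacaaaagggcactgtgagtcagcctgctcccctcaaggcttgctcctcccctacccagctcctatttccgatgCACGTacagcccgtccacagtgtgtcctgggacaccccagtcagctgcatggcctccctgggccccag
Car12, chr9:66713436-66713735, plus strand: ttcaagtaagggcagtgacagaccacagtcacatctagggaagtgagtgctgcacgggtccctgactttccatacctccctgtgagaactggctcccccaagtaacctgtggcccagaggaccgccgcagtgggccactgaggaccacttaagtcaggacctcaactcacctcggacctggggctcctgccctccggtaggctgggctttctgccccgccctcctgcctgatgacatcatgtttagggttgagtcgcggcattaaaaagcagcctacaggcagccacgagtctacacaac
The Car9 match begins 18 bases before the start and the Car4 match 2 bases after it, both as CACGT, the reverse complement of ACGTG. These letters are not in the Car12 window. ACGTG occurs on either strand in 19.6% of the 32851 promoters of that length, GCGTG in 32.4% and either in 43.8%, so a match alone is common. Of the other members, Car14 holds ACGTG 7 bases before its start. Car7 has 3 listed starts, of which 2 hold GCGTG. No promoter of Car1, Car2, Car3, Car8 or Car13 was available here, so these members could not be searched.

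Across the series, levels are RMA values on the log2 scale, whose median per array was 4.90 to 5.05, and a level near or under that carries little signal. Mcc fell between 7.06 and 7.40 in the WT arrays and between 6.39 and 6.71 in the KO arrays, without overlap. Its difference between KO and WT was -0.60 (SE 0.08) on control feed, which missed the threshold with a limma adjusted p of 0.083, and -0.79 (SE 0.09) in lesions (limma adjusted p = 0.0032). Where the probes lie relative to the deleted part is not given. Markers of epithelium were high on all arrays, as the mean of 8 such genes was 11.1 to 11.3 in WT controls, 11.3 to 11.4 in WT lesions, 11.1 to 11.2 in KO controls and 11.4 to 11.7 in KO lesions. Of those 8 genes, 5 were called higher in KO lesions and none in WT lesions, and none was called lower. Over all genes tested, 8.99% were called higher in KO lesions and 6.98% in WT lesions. The median log2 difference of the 8 was 0.32 in KO and 0.22 in WT. None of the 8 was called between KO and WT lesions. The mean of 8 leukocyte markers was 5.38 to 5.62 in WT controls, 7.71 to 8.03 in WT lesions, 5.54 to 5.69 in KO controls and 8.07 to 9.09 in KO lesions, and 7 of the 8 were called higher in each genotype. Members are read beside these marker differences, and the part of cell content in the results was not tested. In whole mucosa, fewer cells of a type and less RNA per cell cannot be told apart.

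Of the 10 members, Car2 fell in the lesions of both genotypes, and Car4 was called lower in WT lesions. That Car4 call was lost in 5 of 22 alternatives, and the KO difference of -0.79 in Car4 was not called. Car9 rose in KO lesions by a narrow margin, while no difference was called in Car1. Calls were made at an adjusted p under 0.05, with Benjamini-Hochberg adjustment over the 30702 genes, in a limma fit of the 4 group means over all 16 arrays. By that rule 2 of the 10 members were called lower and none higher in WT lesions, against 8.37% lower and 6.98% higher, or 15.4% in all, of the genes tested. In KO lesions 1 of 10 was called lower and 1 higher, against 12.1% lower and 8.99% higher, or 21.1% in all. With 10 genes, counts of 1 and 2 are close to these background shares, and nothing is read from them about the family as a whole. The median log2 difference of the 10 members was -0.15 in WT and -0.35 in KO, beside -0.06 and 0.01 for all genes tested. In each genotype 8 of the 10 differences were below 0, beside 64.6% of all genes in WT and 48.7% in KO.

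**Figure D1:**
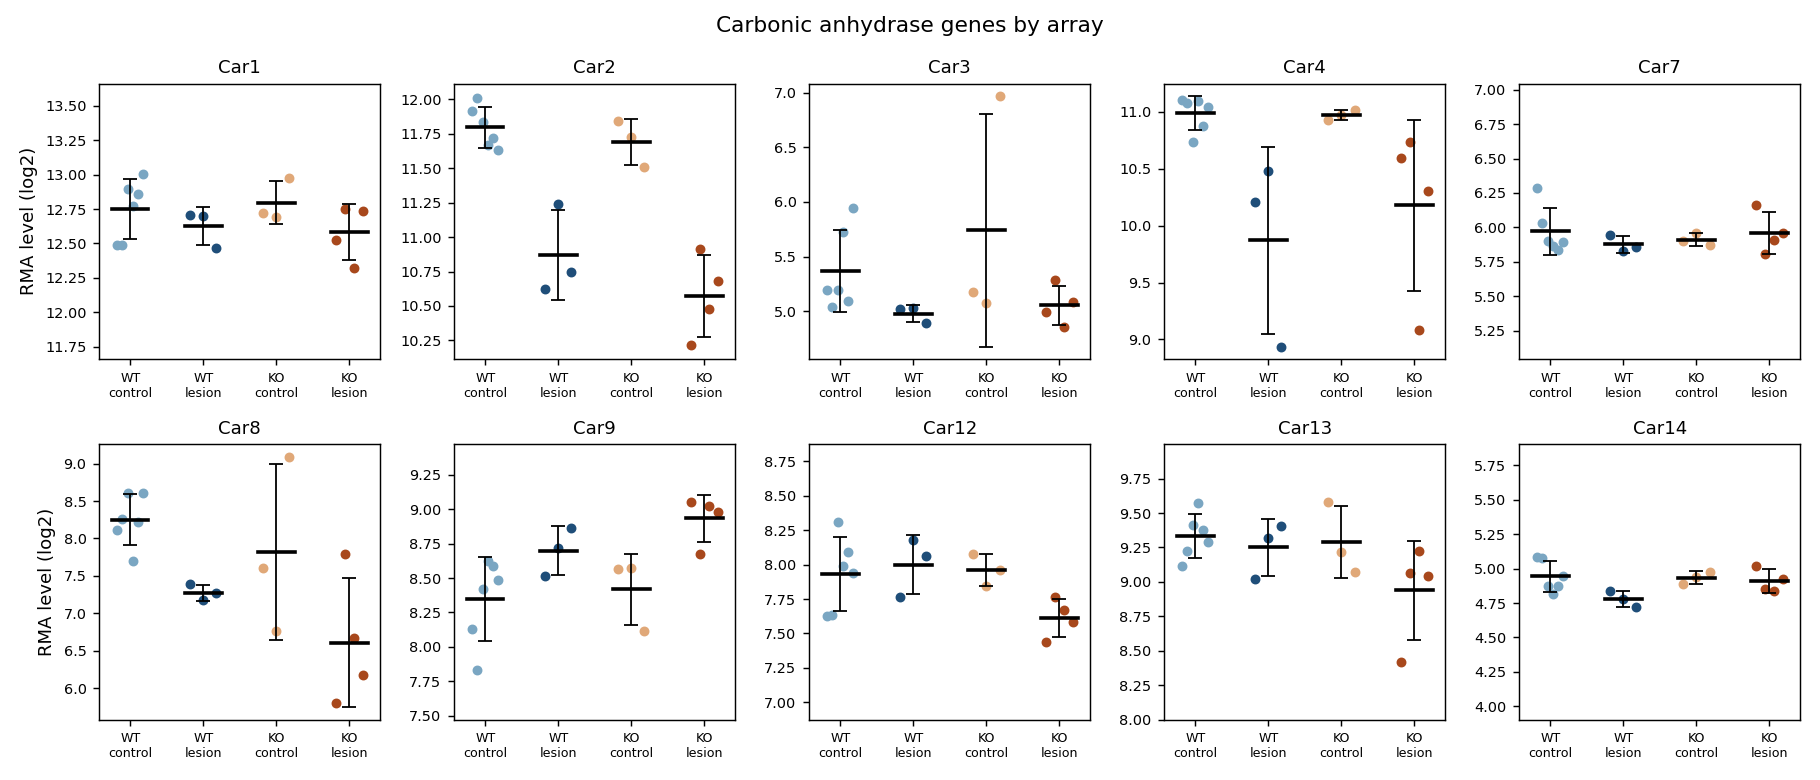
RMA level on the log2 scale of each of the 10 carbonic anhydrase genes, with 1 point per array, the group mean as a bar and its SD as whiskers, in WT controls, WT lesions, KO controls and KO lesions. The y axes differ in position between panels and span at least 2 log2 units. Car2 lesion arrays all lie below the control arrays, and for Car4 replicate 3 of each lesion group stands lowest, at 8.94 in WT and 9.09 in KO.

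Among the cytosolic enzymes, Car2, the fast and widely expressed isoform, gave the clearest difference. It lay between 11.63 and 12.01 in WT controls, with a median of 11.78, and at 10.63, 11.24 and 10.75 in WT lesions 1 to 3. KO controls had 11.84, 11.72 and 11.51, and KO lesions had 10.22, 10.92, 10.48 and 10.68. Every lesion array was below every control array, of both genotypes. The WT mean was 11.80 ± 0.15 (SD, n = 6) on control feed and 10.87 ± 0.32 (SD, n = 3) in lesions. The KO mean was 11.69 ± 0.17 (SD, n = 3) on control feed and 10.57 ± 0.30 (SD, n = 4) in lesions. Car2 was thus 1.90-fold lower in WT lesions (log2 difference -0.93, SE 0.15, limma adjusted p = 5.4e-04). It was 2.17-fold lower in KO lesions (log2 difference -1.12, SE 0.16, limma adjusted p = 1.4e-04). Car2 kept its call in both responses under each alternative run, with limma adjusted p of at most 0.0070 in WT and 0.0053 in KO. The fall in KO exceeded that in WT by 0.19 (95% interval of the interaction from -0.67 to 0.28), which did not pass the test (limma adjusted p = 0.68). In order of level the 2 control groups came first and did not differ beyond their spread, followed by WT and then KO lesions, whose arrays overlapped.

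Car1, a cytosolic isoform abundant in colon epithelium, gave no called difference. WT controls ranged from 12.49 to 13.00 with a median of 12.82, and WT lesions had 12.71, 12.70 and 12.46. KO controls had 12.72, 12.69 and 12.97, and KO lesions had 12.53, 12.75, 12.32 and 12.74. The groups overlapped in both genotypes. The log2 difference was -0.13 in WT (95% interval from -0.40 to 0.15) and -0.21 in KO (95% interval from -0.51 to 0.08), with limma adjusted p of 0.55 and 0.34. A p that misses the threshold does not show that Car1 was unchanged. Its intervals lay above those of Car2, which ran from -1.25 to -0.61 in WT and from -1.47 to -0.77 in KO. Car1 values also lay close to the top of the scale, as the highest value on any array was 13.8. Whether this compressed its differences was not tested. When the named genes were quantile-normalised again, Car1 passed as lower in both genotypes, by -0.30 in WT (limma adjusted p = 0.049) and -0.38 in KO (limma adjusted p = 0.017), and its sign turned in 3 of the WT and 1 of the KO alternatives.

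Car13, Car1, Car3 and Car2 are consecutive genes on chromosome 3 in the RefSeq annotation. Of these neighbours, Car2 alone was called, and the differences side by side were -0.08, -0.13, -0.39 and -0.93 in WT and -0.35, -0.21, -0.69 and -1.12 in KO, in the order of the genes. Car13, a cytosolic enzyme, ranged from 9.12 to 9.58 in WT controls and had 9.02, 9.32 and 9.41 in WT lesions. In KO it had 9.58, 9.22 and 9.07 in controls against 8.42, 9.07, 9.23 and 9.04 in lesions, with overlap in both genotypes (limma adjusted p = 0.78 in WT and 0.19 in KO). KO lesion 1 was the lowest Car13 array of all.

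Car3, an isoform of low activity that is abundant in skeletal muscle and fat, lay near the array medians on most arrays. WT controls ranged from 5.04 to 5.95 with a median of 5.19, and WT lesions had 5.02, 5.03 and 4.89. KO controls had 5.18, 5.08 and 6.97, and KO lesions had 4.99, 5.29, 4.86 and 5.08. The single array KO control 3 set the SD of 1.06 (n = 3) in its group. WT lesions lay just below WT controls without overlap, yet the difference of -0.39 (SE 0.32) did not pass, nor did that of -0.69 (SE 0.35) in KO (limma adjusted p = 0.46 and 0.20).

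Adipocyte markers followed Car3 in part. KO control 3 had the highest mean of the 8 measured adipocyte markers of all arrays, at 5.74, against 5.23 to 5.58 on the other 15. Of the 8 markers, 3 were highest on that array and 5 on another. There Retn, the adipokine resistin, was 6.20, where it reached at most 5.62 elsewhere. Fabp4, a fatty acid binding protein of fat cells, was 5.90 against at most 5.35 elsewhere, and Adipoq, adiponectin, 4.13 against at most 3.84, so that even this array had Adipoq under the array medians. Plin1, a lipid droplet protein, was 5.73 on it but 5.97 in WT control 1, and Cidec, another one, 7.26 but 7.79 in WT control 3. WT control 6, with the next highest Car3 at 5.95, had the next highest marker mean, 5.58. WT control 4, whose Car3 of 5.72 came next, had a marker mean of 5.43, below 6 other arrays. Over groups, the marker mean ranged from 5.33 to 5.58 in WT controls, 5.23 to 5.28 in WT lesions, 5.34 to 5.74 in KO controls and 5.27 to 5.48 in KO lesions, and no marker of the list was called in either response. The part of fat cells in the Car3 values was not tested.

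Car7, the remaining cytosolic member, was flat, with all 16 arrays between 5.81 and 6.29 and differences of -0.09 in WT and 0.05 in KO. Its 95% intervals ran from -0.30 to 0.11 and from -0.17 to 0.27 (limma adjusted p = 0.55 and 0.81).

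Car4, the lipid-anchored enzyme at the luminal surface of colonocytes, fell in WT lesions. WT controls ranged from 10.73 to 11.10 with a median of 11.06, and WT lesions had 10.20, 10.48 and 8.94. KO controls had 10.93, 10.97 and 11.02, and KO lesions had 10.59, 10.73, 9.09 and 10.30. Lesion arrays lay below all control arrays of their genotype, and replicate 3 of each lesion group was more than 1 log2 unit below the others. Car4 was 2.16-fold lower in WT lesions (log2 difference -1.11, SE 0.32, limma adjusted p = 0.028). In KO the difference of -0.79 (SE 0.35, 95% interval from -1.54 to -0.05) was not called, with a limma adjusted p of 0.13. The interaction of 0.32 (SE 0.48, limma adjusted p = 0.75) did not show that the responses differed.

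The size of the Car4 difference rested on the lowest lesions. Without WT lesion 3 the WT difference was -0.65 and lost its call (limma adjusted p = 0.22), and without KO lesion 3 the KO difference was -0.43 (limma adjusted p = 0.31). With both replicates 3 left out together, an alternative chosen after seeing the data, the spread shrank and Car4 was called in both genotypes, at -0.65 (SE 0.12, limma adjusted p = 0.0037) in WT and -0.43 (SE 0.12, limma adjusted p = 0.022) in KO. The call in WT was also lost without WT control 1 (limma adjusted p = 0.0502) and when all rows of the table were tested (limma adjusted p = 0.0509).

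The arrays with the lowest Car4 also had the lowest mean of surface colonocyte markers. The mean of 9 such markers was 10.66 in WT lesion 3 and 10.52 in KO lesion 3, against 10.87 and 11.26 in WT lesions 1 and 2 and 10.94, 11.51 and 11.24 in KO lesions 1, 2 and 4. Controls ranged from 11.54 to 11.70 in WT and from 11.57 to 11.66 in KO. Of the 9 markers, 4 were called lower and 1 higher in WT lesions, and 2 lower and 1 higher in KO lesions. Over all genes 8.37% were called lower and 6.98% higher in WT lesions, and 12.1% and 8.99% in KO lesions. Krt20, a keratin among the 9, went the other way, with 12.74 to 13.09 on the lesion arrays against 12.43 to 12.65 on the controls. Slc26a3, the apical chloride and bicarbonate exchanger and 1 of the 9 markers, was 9.28 in WT lesion 3 and 9.16 in KO lesion 3, yet its lowest array was KO lesion 1 at 8.39, where Car4 was 10.59. Whether a lower share of surface colonocytes had a part in the Car4 values was not tested.

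**Figure D2:**
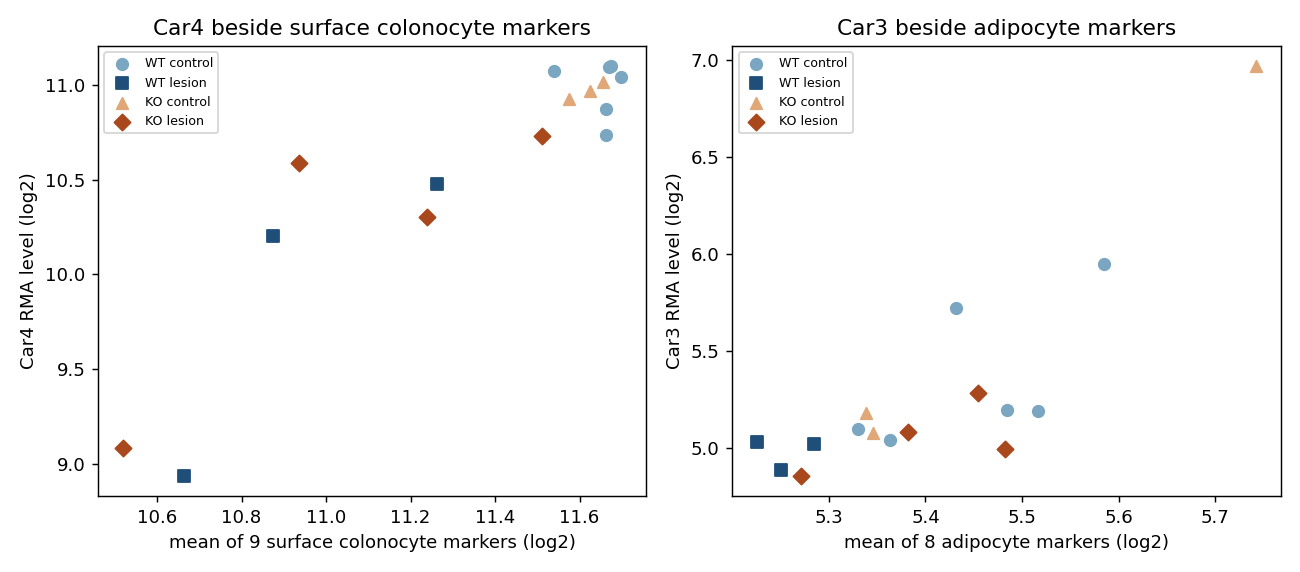
Left, Car4 level against the mean of 9 surface colonocyte markers, and right, Car3 level against the mean of 8 adipocyte markers, all in RMA log2 values with 1 point per array and symbols by group. WT lesion 3 and KO lesion 3 lie at the lower left for Car4, and KO control 3 stands apart at the upper right for Car3, at 6.97.

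Among the transmembrane enzymes, Car9 had higher means in the lesions of both genotypes, and by the rule above only the KO difference was called. WT controls ranged from 7.84 to 8.62 with a median of 8.45, and WT lesions had 8.51, 8.72 and 8.86. KO controls had 8.56, 8.57 and 8.12, and KO lesions had 9.05, 8.68, 9.03 and 8.98. All 4 KO lesions lay above all KO controls, while 2 of the 3 WT lesions lay above all WT controls. Car9 was 1.43-fold higher in KO lesions (log2 difference 0.51, SE 0.18), with a limma adjusted p of 0.049 that only just passed. In WT the difference of 0.35 (SE 0.16) was not called (limma adjusted p = 0.17). The call in KO was lost without 6 of the 7 arrays of that comparison in turn, with adjusted p from 0.057 to 0.21, and with the replicate number as a block (0.45, limma adjusted p = 0.13). Leaving out KO lesion 2 kept it (limma adjusted p = 0.033).

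Samples carry numbers below or above 500, here called the lower and the higher series, whose meaning no label gives. In the lower series 3 WT controls ranged from 7.84 to 8.42, and in the higher series the other 3 ranged from 8.48 to 8.62. The lesion arrays of both genotypes are all of the lower series and the KO controls all of the higher. Within the lower series the WT difference was 0.57 and was called (limma adjusted p = 0.045), as it was with the series as a covariate (0.57, limma adjusted p = 0.025). With that covariate the KO difference was 0.95 (limma adjusted p = 0.012), estimated through the WT controls alone. The series difference itself was 0.44 for Car9 and did not pass over all genes (limma adjusted p = 0.34). No KO value can be had within a series. Car4 in WT had -1.10 both within the lower series (limma adjusted p = 0.16) and with the covariate (limma adjusted p = 0.077), so its call was lost. Car2 in WT had -1.05 in both (limma adjusted p = 0.0067 and 8.6e-04), and in KO with the covariate -1.37 (limma adjusted p = 0.0020).

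Car12, another transmembrane enzyme, did not rise with Car9. WT controls ranged from 7.62 to 8.31 with a median of 7.96, and WT lesions had 7.76, 8.18 and 8.06. KO controls had 8.08, 7.85 and 7.96, and KO lesions had 7.43, 7.76, 7.67 and 7.58. KO lesions thus lay below KO controls without overlap, whereas the WT groups overlapped. The differences were 0.07 (SE 0.14) in WT and -0.35 (SE 0.15) in KO, and neither passed (limma adjusted p = 0.78 and 0.12). Car14, also a transmembrane enzyme, lay at 4.72 to 5.08 on all arrays, near the array medians, with its WT lesion mean of 4.78 under all of them, and no fold is given. Its differences were -0.17 in WT and -0.02 in KO (limma adjusted p = 0.13 and 0.88).

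Car8, the inactive member, varied most among the 10 genes, with arrays spread over 3.28 log2 units. WT controls ranged from 7.70 to 8.61 with a median of 8.24, and WT lesions had 7.39, 7.17 and 7.27, without overlap. KO controls had 7.61, 6.77 and 9.09, and KO lesions had 5.80, 7.79, 6.67 and 6.18, with overlap. The differences of -0.97 (SE 0.43) in WT and -1.21 (SE 0.46) in KO were as large as those of Car2, but neither was called (limma adjusted p = 0.15 and 0.079). The KO difference passed without KO control 2 (-1.74, limma adjusted p = 0.015) or without KO lesion 2 (-1.61, limma adjusted p = 0.014), and was -0.58 without KO control 3 (limma adjusted p = 0.38). In a fit of the 2 WT groups alone, where the wide KO arrays do not enter the spread, the WT difference passed (limma adjusted p = 0.0029).

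Counted by arrays alone, 4 of the 10 members (Car2, Car3, Car4 and Car8) had WT lesions below WT controls without overlap, against 11.6% of all genes. In KO, 3 members (Car2, Car4 and Car12) had lesions below controls without overlap and Car9 had them above, against 14.4% and 12.7% of all genes. No member had WT lesions above WT controls without overlap, against 8.15%. These counts were not tested.

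**Figure D3:**
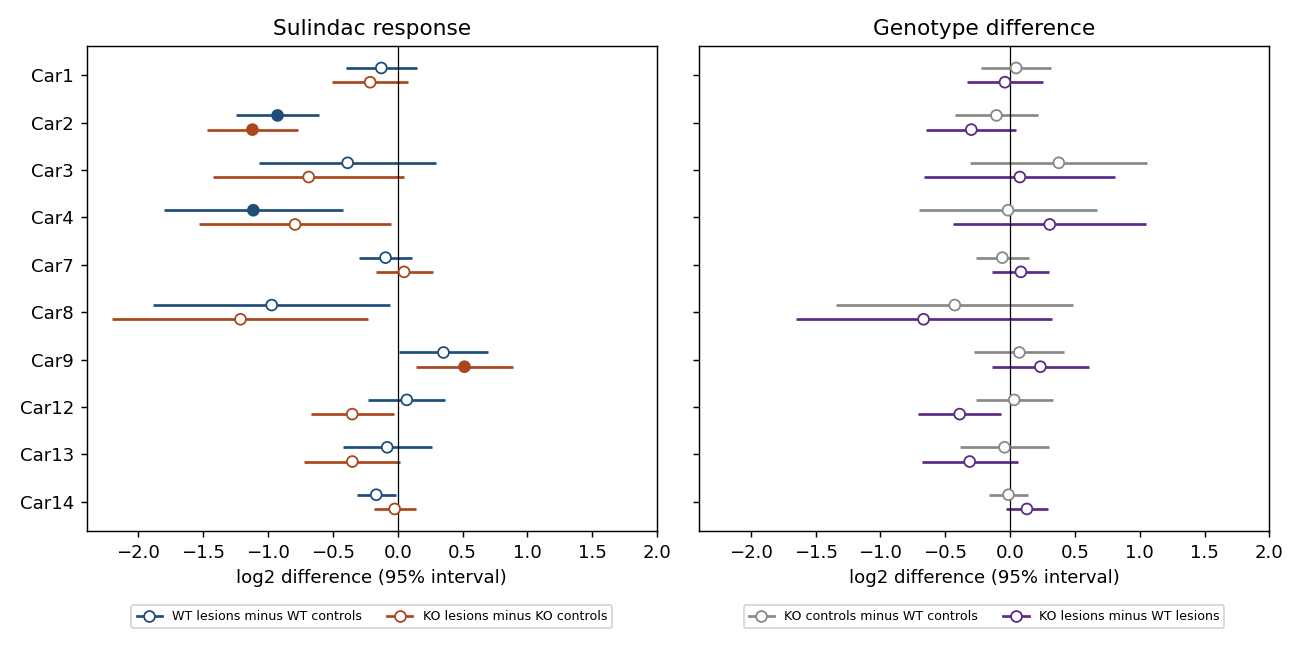
Log2 differences of the 10 genes with 95% intervals from the limma fit, for the sulindac response of each genotype (left) and the genotype difference on each diet (right). Filled points passed an adjusted p of 0.05 over all genes, and these are Car2 in both responses, Car4 in WT and Car9 in KO. No genotype difference is filled.

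No member was called between the genotypes on either feed. On control feed none of the 10 genes passed (limma adjusted p = 0.9995 for each), against 0% of all genes, where limma gave 641 genes and no member at an unadjusted p under 0.05. All 10 intervals held 0, and differences ran from -0.43 for Car8 to 0.38 for Car3. The intervals reached from -1.34 in Car8 to 1.06 in Car3, so differences of that size lie within them. That of Car1, from -0.23 to 0.32, was narrower.

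Between KO and WT lesions no member was called either, against 0.306% of all genes. Car12 came closest, lower by -0.39 in KO lesions (SE 0.15, limma adjusted p = 0.28), and its interval from -0.71 to -0.07 was the 1 of 10 that left out 0. In 3 of the 4 KO lesions Car12 was below all WT lesions. Car14 in KO lesions lay above WT lesions without overlap, by 0.13 near background (limma adjusted p = 0.48), as did 5.48% of all genes. The interaction called no member, against 0.00326% of all genes, which is 1 gene. Its lowest adjusted p among the members was 0.45, again for Car12, whose differences pointed apart (0.07 in WT, -0.35 in KO) with an interaction of -0.42 (95% interval from -0.86 to 0.01). Replicate numbers of the lesions paired by the check described with the processing, and with the replicate block 2 genes instead of 94, and no member, were called between lesions. Without KO lesion 3, 1697 genes were called, and still no member was.

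Of the other carbonic anhydrase genes, all 6 were measured, and 1 was lower and 1 higher in each genotype, beside the background shares given above. Car15, a lipid-anchored enzyme, fell by 0.50 (SE 0.08) in WT lesions and by 0.31 (SE 0.08) in KO lesions on the log2 scale (limma adjusted p = 4.0e-04 and 0.014). Car5b, a mitochondrial isoform, rose by 0.23 (SE 0.07) and 0.46 (SE 0.07), from control means of 4.76 and 4.86 under the array medians (limma adjusted p = 0.027 and 2.4e-04), so its folds are lower bounds. Car5a, Car6, Car10 and Car11 were not called.

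Among transporters of the products of the reaction, Slc26a3 fell in both genotypes. Of 15 measured genes of the bicarbonate transport list, 3 were lower and 1 higher in WT lesions and 5 lower and 1 higher in KO lesions, with list medians of -0.08 and 0.02 beside -0.06 and 0.01 for all genes. Over all genes 8.37% were lower and 6.98% higher in WT lesions and 12.1% and 8.99% in KO lesions. Slc26a3 had the largest fall of the list, by 1.74 (SE 0.36) in WT and by 2.22 (SE 0.39) in KO on the log2 scale (limma adjusted p = 0.0036 and 7.0e-04). Cftr, the apical anion channel, fell by 1.47 in KO (limma adjusted p = 0.0025) and had -0.57 in WT (limma adjusted p = 0.20). Slc4a4, the basolateral sodium bicarbonate cotransporter, fell by 1.23 in KO (limma adjusted p = 0.0036) and had -0.64 in WT (limma adjusted p = 0.10). Slc4a11, an SLC4 family member that does not carry bicarbonate, rose by 1.18 in WT and 1.81 in KO. The difference between enzymes and transporters was not tested. Slc26a3 and 2 genes named below, Aqp8 and Guca2a, are also among the 9 surface colonocyte markers. Of these, 4 were called lower and 1 higher in WT lesions, and 2 lower and 1 higher in KO lesions.

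Of 15 measured proton and lactate transport genes, 2 were lower and 1 higher in WT lesions and 3 lower and 1 higher in KO lesions, counts near those background shares, with list medians of -0.09 and -0.06. Slc9a3, the apical sodium and proton exchanger, fell by 1.29 in KO (limma adjusted p = 0.022) and had -0.82 in WT (limma adjusted p = 0.13). Slc9a2, another exchanger of this family, fell by 0.82 in WT (limma adjusted p = 0.0023) and had -0.46 in KO (limma adjusted p = 0.075). Slc16a1, a transporter of lactate and short-chain fatty acids, fell by 0.78 and 0.65, whereas Slc16a3, a lactate exporter of glycolytic cells, rose by 0.68 and 1.23.

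Among 8 measured channels, 2 were lower in WT lesions, and 2 lower and 1 higher in KO lesions. Over all genes 8.37% were lower in WT lesions, and 12.1% were lower and 8.99% higher in KO lesions. With 8 genes, nothing is read from these counts. The list medians were -0.11 and 0.00. Aqp1, a water channel that also passes carbon dioxide, fell by 1.46 in WT and by 1.31 in KO. Aqp8, a colonocyte water channel, fell by 1.43 in WT (limma adjusted p = 0.0026) and had -0.85 in KO (limma adjusted p = 0.064). Of 8 genes of the guanylin pathway and the exchanger scaffolds, 2 were lower in WT lesions and 4 in KO lesions. None was higher. Over all genes 8.37% and 12.1% were lower, and 6.98% and 8.99% higher, in WT and KO lesions. The list medians were -0.42 and -0.44, beside -0.06 and 0.01 for all genes. These counts were not tested. Guca2a, guanylin, a peptide that raises bicarbonate secretion, fell by 1.59 in WT and by 1.67 in KO. Its receptor gene Gucy2c fell by 0.84 in KO (limma adjusted p = 0.0016) and had -0.38 in WT (limma adjusted p = 0.11).

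Many genes of a list known to be induced by hypoxia, which holds no carbonic anhydrase, rose in lesions. A link between these genes and Car9 was not tested. Of 20 measured, 10 were higher and 1 lower in WT lesions and 12 higher and none lower in KO lesions, with list medians of 0.46 and 0.82 beside -0.06 and 0.01 for all genes, of which 6.98% and 8.99% were higher. Adm, adrenomedullin, rose by 2.24 and 3.59 on the log2 scale, and Egln3, a prolyl hydroxylase, by 1.93 and 2.36. Pfkfb3, a regulator of glycolysis, rose by 1.73 and 2.50, and Hk2, a hexokinase, by 1.64 and 2.05. Of 7 regulators, Hif1a, the inducible factor's alpha subunit, rose by 1.50 in WT and 1.62 in KO (limma adjusted p = 2.3e-04 and 1.5e-04), and Epas1 rose by 0.46 in KO (limma adjusted p = 0.045), while none was lower. The leukocyte markers given above rose in the same arrays, and which cells carried these changes was not tested.

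**Figure D4:**
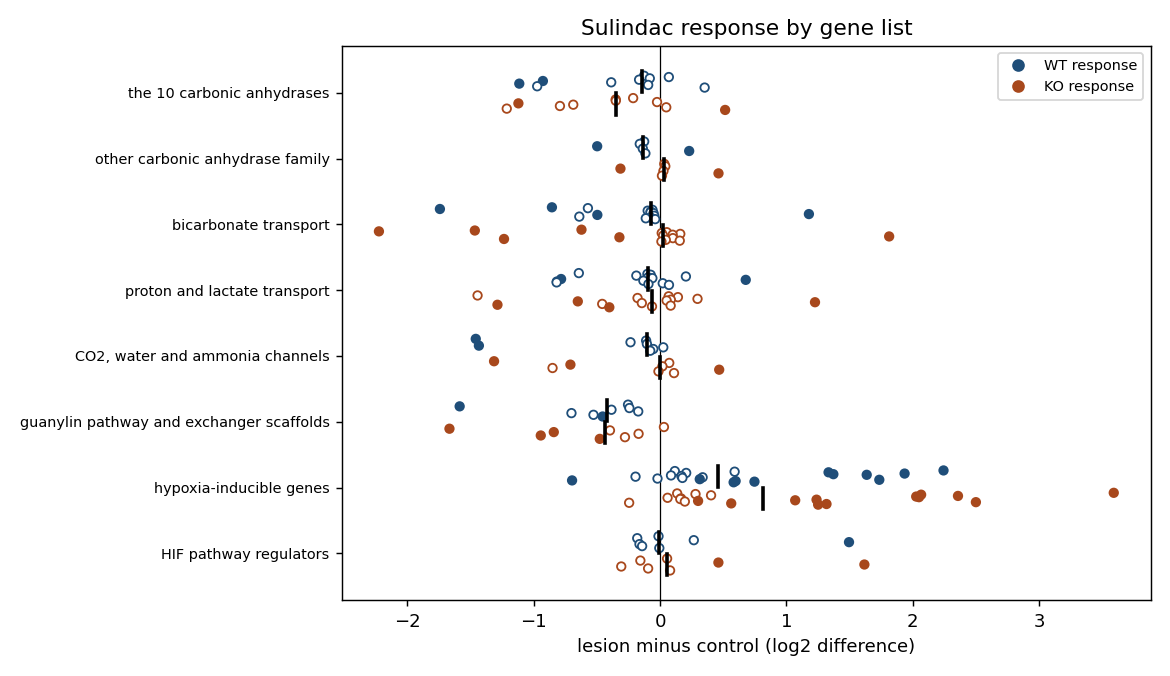
Lesion minus control log2 differences of the 10 carbonic anhydrases and of the genes of 7 related lists, with 1 point per gene, WT response in blue and KO response in orange-brown. Filled points passed an adjusted p of 0.05 over all genes and black bars are list medians. The hypoxia-inducible genes reach 3.59 in KO, where the highest carbonic anhydrase, Car9, is at 0.51.

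For the members whose 4 group means spanned more than 1 log2 unit, the genes with the most similar pattern were sought by the root-mean-square difference over the 16 arrays, after each gene was centred on its own mean. Nearest to Car2 were Acnat1 (0.11 log2 units), Fchsd2 (0.12) and Ttc38 (0.15). Nearest to Car4 were Abcg2, an efflux transporter of the apical membrane (0.25), Cyp2d34 (0.27) and Cpm, a carboxypeptidase (0.29). Nearest to Car8 were Anxa13, an annexin of intestinal epithelium (0.39), Rnf32 (0.39) and Ugdh, which makes UDP-glucuronate (0.40). All 9 had lower means in the lesions of both genotypes. Since they were picked for likeness over these same arrays, this follows from the choice and is no separate result. These distances describe the 16 arrays, and say nothing of shared function or control.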

How the data were processed

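The deposited values are log2 expression per transcript cluster on 16 arrays, made by the authors with RMA (background correction, quantile normalisation, probe summary). Per the submitters' processing notes the tools were RMA and, at version 1.16.1, Affymetrix Power Tools. Their genome build is not given in the sources used here. RMA gives no detection call, and the number of arrays limits the precision.

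The table held 72688 rows, of which 31258 had 1 gene symbol after symbols were updated through RefSeq (GRCm38.p6), 1492 had several and 39938 were not listed. The highest-mean row was used for the 441 genes with several, which left 30702 genes. Groups came from the titles. No label says that arrays are separate animals, so p-values measure the spread between these samples, which may be technical. Within-group correlations were 0.982 to 0.996, with at most 0.0289% identical values, so no array was a copy of another in its group. Arrays of different groups were not compared in this way.

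The fit used limma 3.58.1 (R 4.3.3), two-sided, with 1 spread over 4 groups. It was tested on simulated data. Alternatives were other row choices, moderation, scaling, blocks and left-out arrays. The replicate numbers of WT and KO lesions deviated together over 3 pairs (r from 0.30 to 0.54), which pairs them by the rule of r over 0.1 in every pair. They did not meet it in the WT response (from 0.10 to 0.35, the lowest being 0.097), the KO response (-0.30 to -0.15) or on control feed (-0.34 to -0.24). Members, lists and alternatives were chosen with earlier results of these data known. All 10 members were named, with at most 4 called genes of each related list by size of change and, for members spanning over 1 log2 unit, the 3 genes nearest in pattern. No sample column was left out.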

Additional observations from a re-analysis of the deposited data

How the results depend on the processing

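Car2 kept its call in both responses under each alternative run. The 2 members called in WT lesions became 1, Car2, when all rows were tested. They became 3 with quantile normalisation, which added Car1, and with the compared groups alone, which added Car8. They stayed 2 under the number series as a covariate and within the lower series, but with Car9 in place of Car4. In KO lesions the 2 members became 1, Car2, when all rows were tested, with trend and robust moderation, with array weights, with arrays centred on their medians and with the replicate block. Quantile normalisation made them 3, again with Car1. With both replicates 3 of the lesions left out, an alternative chosen after seeing the data, 2 were called, with Car4 in place of Car9. The Car9 call in KO was lost in 12 of 19 alternatives. Leaving out 1 array at a time gave 1 to 2 members in WT, 1 to 3 in KO, and 0 in both genotype differences and the interaction.

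Of all genes, 4713 were called in WT lesions (2144 higher, 2569 lower), 4096 with centred arrays (2352 higher, 1744 lower) and 2985 within the lower series (1586 higher, 1399 lower), while 6470 were called in KO lesions (2760 higher, 3710 lower) and 2514 (1389 higher, 1125 lower) with the series as a covariate. Without single arrays these counts were 3157 to 4461 and 4472 to 7004. Between lesions 94 were called, against 5 with all rows, 714 with array weights, 26 with centred arrays, 1 with the compared groups alone, 2 with the replicate block, 58 with the series covariate, 2 within the lower series, 428 without both lesion replicates 3 and 4 to 1697 without single arrays, the highest without KO lesion 3. On control feed none was called, against 1 with array weights, 1 with quantile normalisation and 0 to 2 without single arrays. The interaction called 1, against 115 without both lesion replicates 3 and 1 to 518 without single arrays, the highest again without KO lesion 3. Leaving out an array reduced no arm to 1 sample. Causes were not tested. The KO response has no value within a number series, since its groups lie in different ones, and no interaction was fitted there or with the compared groups alone.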
